A study of Homo sapiens with 8 samples.

Results

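Amino acid transporter genes were examined in the human embryonic carcinoma line NCCIT after depletion of each of the 3 TET dioxygenases. The 59 genes were taken by symbol, as every gene of the SLC1, SLC3, SLC6, SLC7, SLC36, SLC38 and SLC43 families that was the only gene annotated to a transcript cluster (a group of probes read as 1 transcript), out of 18417 genes measured. Symbols of the array annotation were first replaced by the current RefSeq symbols where these were known. The pattern also took in SLC7A6OS, which shares part of its name with the transporter SLC7A6, overlaps it in the genome and is not a transporter itself.

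The groups were cells transfected with a pool of small interfering RNAs against TET1 (siTET1), against TET2 (siTET2) or against TET3 (siTET3), and cells given a non-targeting siRNA in parallel (siNTC), with 2 arrays each and 8 in all. No allele was altered in any group, all cells were transfected and kept undifferentiated in a serum medium with added glutamine, and the depletions were transient and partial. TET enzymes oxidise 5-methylcytosine in DNA, and the arrays addressed how their loss affects transcript abundance. The labels do not tell whether the replicates came from separate cultures, and the p-values below therefore cover no more than the spread between these arrays.

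Cells take up and exchange amino acids through a small number of carrier families. The SLC7 light chains form heterodimers at the plasma membrane with a glycoprotein heavy chain, most of them with SLC3A2 (CD98) and SLC7A9 with SLC3A1, and exchange 1 amino acid for another. The SLC7 cationic carriers bring in arginine and lysine, SLC1 carriers bring in glutamate or exchange neutral amino acids, SLC38 carriers move glutamine and other small neutral amino acids, SLC6 carriers bring in taurine, glycine, creatine, neurotransmitters and further amino acids with sodium, SLC36 carriers move small amino acids with protons, and SLC43 carriers let large neutral amino acids pass by facilitated diffusion. Leucine that enters through SLC7A5 (LAT1) is known to activate the growth kinase mTORC1, and shortage of amino acids is known to raise translation of the transcription factor ATF4, which drives several of these carriers through a short promoter element.

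The core of that element, TGATGNAA, was searched on both strands in RefSeq promoters (250 bases before to 50 after the start site, GRCh38.p14), because the carriers known to answer ATF4 are among those described below. It was found in 6 of the 46 transporter genes with a promoter in the table (13%), against 1217 of all 27305 genes in the table (4.46%), a gene counting once if any of its promoters held the core. The matches are printed 5′ to 3′ on the strand of the match, with the core in capitals. A match is a run of letters and does not show that a factor binds there. The number of promoters per gene, on which these shares depend, was not compared between the sets. Some matches, such as that of SLC3A2, belong to a start site inside the gene. Which start sites these cells used was not examined.
SLC1A4, chr2:64989384-64989407, minus strand: gctggagaTGATGCAAacgggagc
SLC1A3, chr5:36596360-36596383, plus strand: gaaatgacTGATGCAAagcagggt
SLC3A2, chr11:62881728-62881748, minus strand: ggagcTGATGTAAggagtcct
SLC38A1, chr12:46266505-46266528, minus strand: gacccgaaTGATGAAAagggatca
SLC7A1, chr13:29595666-29595689, minus strand: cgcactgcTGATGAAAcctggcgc
SLC1A5, chr19:46784896-46784919, minus strand: gaagtggcTGATGCAAgctgtcca

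Values are log2 intensities, so a difference of 1 is a 2-fold change, and they are set side by side only within a gene, since probes differ in brightness. Background was the 95th percentile of 341 olfactory receptor genes, at 5.21. The 8 arrays had medians of 6.222 to 6.271. Across genes, Pearson correlations were 0.989 to 0.991 between depletion and siNTC arrays, 0.995 to 0.998 between depletions and 0.998 to 0.999 within a group, so siNTC stood apart from every depletion. TET1 fell in siTET1 (-0.68 ± 0.048, standard error of the fit throughout), TET2 in siTET2 (-0.88 ± 0.095) and TET3 in siTET3 (-1.08 ± 0.15). The other TETs moved too: TET1 fell by 0.30 in siTET2 and rose by 0.42 in siTET3, and TET2 fell by 0.47 in siTET3. Of 9 listed pluripotency markers 6 were measured, without POU5F1, NANOG and TDGF1, and all 6 were above background on all 8 arrays. Limma called 3 of them higher and 1 lower in siTET1, and 2 higher and 2 lower in each of siTET2 and siTET3. L1TD1 was higher and SALL4 lower in all 3, and SOX2 was lower in siTET2 (-0.13) and siTET3 (-0.19). Of 20 markers of other lineages 8 were above background on all 8 arrays, and 11, among them SOX17, PAX6 and AFP, were on none. Of these 20, limma called 2 lower in siTET1, 2 higher and 2 lower in siTET2, and 2 higher and 3 lower in siTET3. Among the 5 trophectoderm markers, 2 were called lower in siTET1, 1 higher and 1 lower in siTET2, and 1 lower in siTET3. HAND1 fell in all 3 (-0.84, -0.96 and -0.85), while CGA, called higher in siTET2, and KRT7 were below background on all 8 arrays. Among the 5 endoderm markers, 1 was called higher and 1 lower in siTET2, and 2 higher and 1 lower in siTET3. GATA6 rose in both (0.34 and 0.53), while the other endoderm calls, of FOXA2 and AFP, fell on genes below background on all 8 arrays. The part of these markers in the results below was not tested.

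A gene was called at a Benjamini-Hochberg adjusted p under 0.05 over all genes of a limma comparison. In siTET1 against siNTC 6 of the 59 rose and 11 fell, where 15.6% and 18.7% of all genes did. In siTET2 9 rose and 10 fell (14.4% and 21.8% of all genes), and in siTET3 9 rose and 8 fell (13.8% and 22.3% of all genes). Changes of at least 1.5-fold were called for 4 members in siTET1, 4 in siTET2 and 5 in siTET3, against 5.13%, 6.16% and 5.91% of all genes. The members' median log2 changes were -0.012, -0.01 and -0.006 in siTET1, siTET2 and siTET3, beside -0.031, -0.039 and -0.017 for all genes. These counts lie near the shares of all genes and are no result about the family as a whole. In RNA from whole cultures, fewer cells of a type and less RNA per cell cannot be told apart. The 3 comparisons share the 2 siNTC arrays, so a deviation of those arrays enters all 3.

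Part of the repertoire was above background. Of the 59 members 29 (49.2%) were above background on all 8 arrays, against 65.8% of all genes, and 25 (42.4%, against 26.8% of all genes) were on none. Among the carriers above background on every array were SLC7A5, SLC7A6, SLC7A8, SLC7A10 and SLC7A11 with their heavy chain SLC3A2, the cationic carriers SLC7A1, SLC7A2 and SLC7A3, the glutamate carrier SLC1A3, the exchangers SLC1A4 and SLC1A5, and the taurine and glycine carriers SLC6A6 and SLC6A9. Among those on no array were SLC3A1, the glutamate carriers SLC1A1, SLC1A2, SLC1A6 and SLC1A7, the intestinal and renal carriers SLC6A18 and SLC6A19, and the serotonin carrier SLC6A4.

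SLC7A5 was the member whose depletions differed most from each other. It read 8.86 and 8.91 in siTET1, 9.25 and 9.28 in siTET2, 9.56 and 9.65 in siTET3, and 9.13 and 9.04 in siNTC. No group overlapped another, and the order ran siTET1, siNTC, siTET2, siTET3. Against siNTC, SLC7A5 fell by 0.19 ± 0.054 in siTET1 (adjusted p = 0.0135) and rose by 0.18 ± 0.054 in siTET2 (adjusted p = 0.0171) and by 0.52 ± 0.054 in siTET3 (1.44-fold, adjusted p = 6.43e-06). It was the only member with calls in opposite directions against siNTC. The 3 differences between depletions also passed: siTET3 exceeded siTET1 by 0.72 ± 0.054 (1.64-fold, adjusted p = 6.81e-06) and siTET2 by 0.34 ± 0.054 (adjusted p = 0.00135), and siTET2 exceeded siTET1 by 0.38 ± 0.054 (adjusted p = 0.00153). The place of siNTC in the order was less firm. The siTET1 call was lost without siTET1 replicate 1 (-0.17, adjusted p = 0.103) and without siNTC replicate 1 (-0.15, adjusted p = 0.101). The siTET2 call was lost without siTET2 replicate 1 (0.20, adjusted p = 0.0597), without siTET2 replicate 2 (0.17, adjusted p = 0.119), without siNTC replicate 2 (0.14, adjusted p = 0.118) and without an intensity trend in the fit (adjusted p = 0.052).

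**Figure D1:**
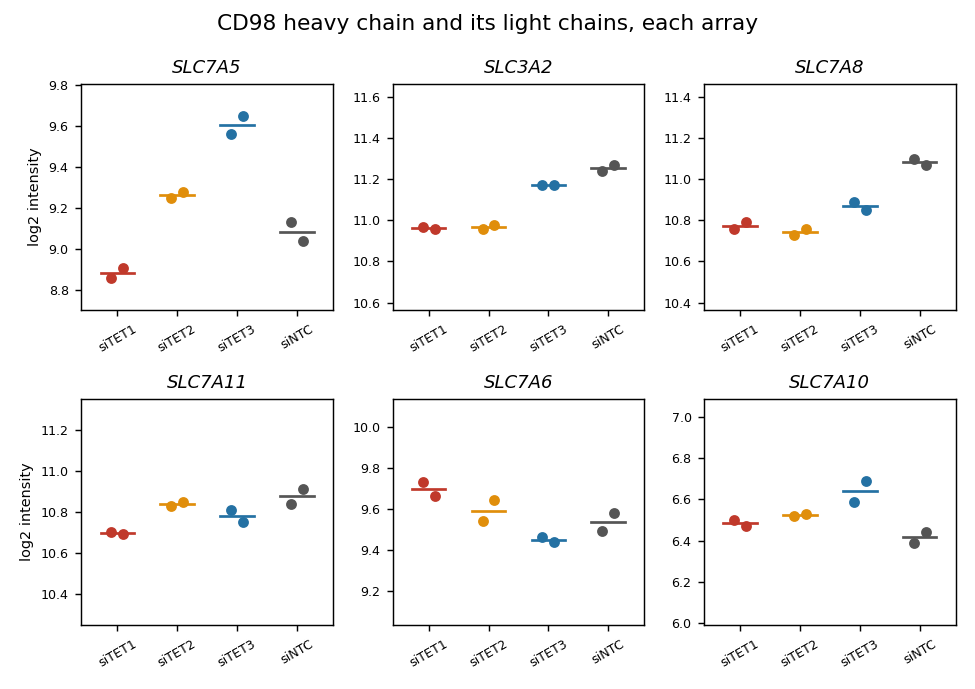
Log2 intensity of SLC7A5, SLC3A2 and 4 further SLC3A2 partners (y axes, each panel on its own scale) on each array (points) of siTET1, siTET2, siTET3 and siNTC (x axes), with bars at the group means. SLC7A5 climbs over siTET1, siNTC, siTET2 and siTET3 with no overlap, while SLC3A2 and SLC7A8 are lowest in siTET1 and siTET2.

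Its heavy chain moved otherwise. SLC3A2 read 10.97 and 10.96 in siTET1, 10.96 and 10.98 in siTET2, 11.17 and 11.17 in siTET3, and 11.24 and 11.27 in siNTC. All 6 depletion arrays lay below both siNTC arrays, and those of siTET3 lay above those of siTET1 and siTET2. SLC3A2 fell by 0.29 ± 0.034 in siTET1 (adjusted p = 2.1e-05) and by 0.29 ± 0.034 in siTET2 (adjusted p = 2.23e-05), while its difference of -0.09 ± 0.034 in siTET3 did not pass (adjusted p = 0.0656, and 0.0476 when genes above background alone were fitted). It was higher in siTET3 than in siTET1 by 0.21 (adjusted p = 0.0017) and than in siTET2 by 0.20 (adjusted p = 0.00227), calls lost only without an intensity trend (adjusted p = 0.0504 and 0.0607). So in siTET2 the light chain SLC7A5 was called higher and its heavy chain lower, against the same 2 siNTC arrays.

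Of the 8 light chains on the array, 1 rose and 4 fell in siTET1, 1 rose and 2 fell in siTET2, and 1 rose and 1 fell in siTET3, beside 15.6% and 18.7%, 14.4% and 21.8%, and 13.8% and 22.3% of all genes. Among those that fell in siTET1 and siTET2 was SLC7A7, which was below background on all 8 arrays. SLC7A8 (LAT2), which exchanges neutral amino acids, read 10.76 and 10.79 in siTET1, 10.73 and 10.76 in siTET2, 10.89 and 10.85 in siTET3, and 11.10 and 11.07 in siNTC. Every depletion array lay below both siNTC arrays, and SLC7A8 fell by 0.31, 0.34 and 0.21 in siTET1, siTET2 and siTET3 (standard error 0.037, adjusted p = 2.16e-05, 9e-06 and 0.000448). SLC7A11 (xCT), which imports cystine for glutathione in exchange for glutamate, read 10.70 and 10.69 in siTET1, 10.83 and 10.85 in siTET2, 10.81 and 10.75 in siTET3, and 10.84 and 10.91 in siNTC. It was lowest in siTET1, where it fell by 0.18 ± 0.041 (adjusted p = 0.00374). The siTET2 arrays overlapped siNTC and the siTET3 arrays lay just below it, and neither difference passed. SLC7A6 (y+LAT2), which exchanges arginine for neutral amino acids, read 9.73 and 9.66 in siTET1, 9.54 and 9.64 in siTET2, 9.46 and 9.44 in siTET3, and 9.49 and 9.58 in siNTC. It was highest in siTET1, where it rose by 0.16 ± 0.052 (adjusted p = 0.0328), a call lost in 5 of 15 alternative fits, with an adjusted p of 0.215 without siTET1 replicate 1. SLC7A6OS, whose gene overlaps it, gave 0.12 ± 0.060 in siTET1 (adjusted p = 0.132). SLC7A10 (Asc-1), a carrier of small neutral amino acids, gave 0.07, 0.11 and 0.22 in siTET1, siTET2 and siTET3 and did not pass (adjusted p = 0.609, 0.379 and 0.0651). SLC7A7 (y+LAT1) had means of 4.26 in siTET1, 4.23 in siTET2 and 4.54 in siNTC, and its calls in siTET1 and siTET2 therefore carry no fold.

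The cationic carriers did not share a direction. SLC7A1 (CAT1), the widespread arginine and lysine carrier, read 9.01 and 8.87 in siTET1, 8.96 and 8.96 in siTET2, 8.86 and 8.91 in siTET3, and 9.24 and 9.29 in siNTC. Both siNTC arrays lay above all 6 others, and SLC7A1 fell by 0.32, 0.31 and 0.38 (standard error 0.058, adjusted p = 0.000648, 0.000833 and 0.00018). SLC7A2 (CAT2), which is known for arginine uptake in liver and activated macrophages, read 9.32 and 9.40 in siTET1, 9.12 and 9.18 in siTET2, 9.04 and 9.11 in siTET3, and 8.87 and 8.84 in siNTC. Both siNTC arrays lay below all 6 others and siTET1 lay above the other depletions. SLC7A2 rose by 0.50 in siTET1 (1.42-fold), 0.30 in siTET2 and 0.22 in siTET3 (standard error 0.053, adjusted p = 9.33e-06, 0.000654 and 0.00597). SLC7A3 (CAT3) gave 0.04, -0.11 and -0.09 with a standard error of 0.057 and did not pass, and its 95% intervals reached from -0.08 to 0.16 in siTET1 and from -0.24 to 0.01 in siTET2.

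The largest increases were in carriers of taurine and glutamate. SLC6A6 (TauT), which concentrates the osmolyte taurine, read 11.00 and 11.00 in siTET1, 11.17 and 11.25 in siTET2, 11.00 and 10.86 in siTET3, and 10.11 and 10.17 in siNTC. All depletion arrays lay above both siNTC arrays, and SLC6A6 rose 1.82-fold in siTET1 (0.86 ± 0.048, adjusted p = 4.68e-08), 2.10-fold in siTET2 (1.07 ± 0.048, adjusted p = 5.07e-09) and 1.73-fold in siTET3 (0.79 ± 0.048, adjusted p = 8.24e-08). SLC1A3 (EAAT1, GLAST), a sodium-coupled glutamate and aspartate carrier known best from astrocytes, read 10.41 and 10.41 in siTET1, 10.47 and 10.45 in siTET2, 10.34 and 10.27 in siTET3, and 9.54 and 9.63 in siNTC. Again no depletion array reached down to siNTC, with increases of 1.78-fold in siTET1 (0.83 ± 0.045, adjusted p = 3.78e-08), 1.83-fold in siTET2 (0.88 ± 0.045, adjusted p = 1.78e-08) and 1.65-fold in siTET3 (0.73 ± 0.045, adjusted p = 9.6e-08). SLC36A1 (PAT1), the proton-coupled carrier that exports small amino acids from lysosomes, read 8.45 and 8.47 in siTET1, 8.50 and 8.57 in siTET2, 8.47 and 8.45 in siTET3, and 8.05 and 8.21 in siNTC. The siNTC arrays were again the lowest, and SLC36A1 rose by 0.33, 0.41 and 0.34 (standard error 0.065, adjusted p = 0.00133, 0.000235 and 0.00119). SLC38A2 (SNAT2), which takes up glutamine and alanine and is known to rise in amino acid shortage and hypertonic stress, read 12.63 and 12.59 in siTET1, 12.77 and 12.82 in siTET2, 12.71 and 12.78 in siTET3, and 12.56 and 12.50 in siNTC. It rose in siTET2 (0.27 ± 0.035, adjusted p = 5.1e-05) and siTET3 (0.22 ± 0.035, adjusted p = 0.000244), while the siTET1 arrays lay just above siNTC and did not pass.

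**Figure D2:**
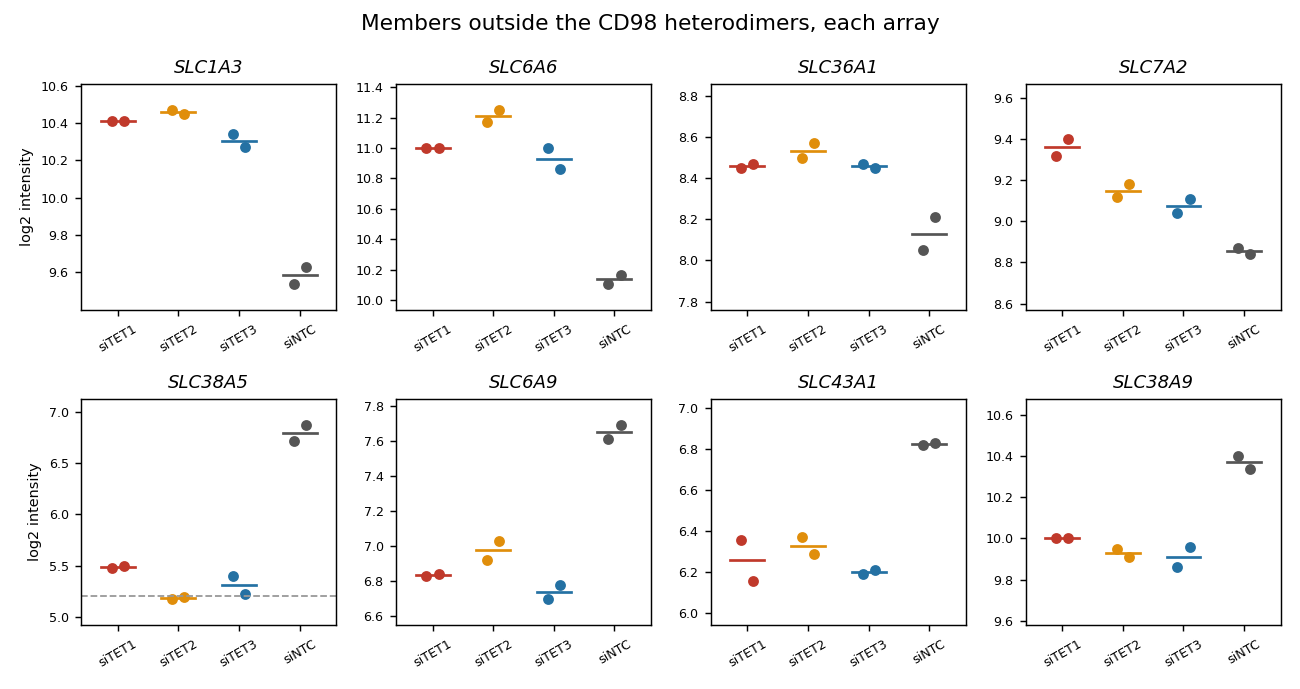
Log2 intensity (y axes, each panel on its own scale) of SLC1A3, SLC6A6, SLC36A1, SLC7A2, SLC38A5, SLC6A9, SLC43A1 and SLC38A9 on each array (points) of siTET1, siTET2, siTET3 and siNTC (x axes), with bars at the group means and a dashed line at background (5.21). In each panel both siNTC arrays lie outside the range of the 6 depletion arrays, and SLC38A5 reaches background in siTET2.

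SLC38A5 and SLC6A9 had the largest called decreases against siNTC in all 3 comparisons. SLC38A5 (SNAT5), which moves glutamine, serine and glycine, read 5.48 and 5.50 in siTET1, 5.18 and 5.20 in siTET2, 5.40 and 5.23 in siTET3, and 6.71 and 6.87 in siNTC. The siNTC arrays were the highest, the siTET1 and siTET3 arrays lay just above background and both siTET2 arrays lay below it. SLC38A5 was 2.47-fold lower in siTET1 (-1.30 ± 0.10, adjusted p = 6.89e-07), at least 3-fold lower in siTET2 (adjusted p = 9.16e-08) and 2.79-fold lower in siTET3 (-1.48 ± 0.10, adjusted p = 2.19e-07), where "at least" sets a group below background at the background. SLC6A9 (GlyT1), the sodium-coupled glycine carrier, read 6.83 and 6.84 in siTET1, 6.92 and 7.03 in siTET2, 6.70 and 6.78 in siTET3, and 7.61 and 7.69 in siNTC. All depletion arrays lay below both siNTC arrays, and SLC6A9 was 1.76-fold lower in siTET1 (-0.82 ± 0.082, adjusted p = 5.85e-06), 1.60-fold lower in siTET2 (-0.68 ± 0.082, adjusted p = 2.67e-05) and 1.88-fold lower in siTET3 (-0.91 ± 0.082, adjusted p = 2.12e-06). SLC43A1 (LAT3), which passes leucine and other large neutral amino acids, read 6.36 and 6.16 in siTET1, 6.37 and 6.29 in siTET2, 6.19 and 6.21 in siTET3, and 6.82 and 6.83 in siNTC. Its decreases of 0.56, 0.49 and 0.63 (standard error 0.095, adjusted p = 0.000435, 0.00109 and 0.000172) again left no overlap with siNTC. The 24 nearest genes above background around SLC43A1 had median changes of -0.04, -0.14 and -0.18. Over all named members such medians lay between -0.18 and 0.15.

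SLC38A9, the lysosomal carrier that senses arginine for mTORC1, read 10.00 and 10.00 in siTET1, 9.95 and 9.91 in siTET2, 9.86 and 9.96 in siTET3, and 10.40 and 10.34 in siNTC. All depletions were lower than siNTC, and SLC38A9 fell by 0.37, 0.44 and 0.46 (standard error 0.047, adjusted p = 4.35e-05, 7.74e-06 and 5.52e-06). SLC1A4 (ASCT1), which exchanges alanine, serine, cysteine and threonine, read 5.31 and 5.57 in siTET1, 5.28 and 5.39 in siTET2, 5.76 and 5.56 in siTET3, and 5.88 and 5.81 in siNTC. These values lie close above background, and SLC1A4 fell by 0.51 ± 0.11 in siTET2 (adjusted p = 0.00311) and by 0.41 ± 0.11 in siTET1 (adjusted p = 0.0131). The siTET1 call was lost without siTET1 replicate 1 (-0.28, adjusted p = 0.154) and without siNTC replicate 1 (-0.38, adjusted p = 0.0768).

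**Figure D3:**
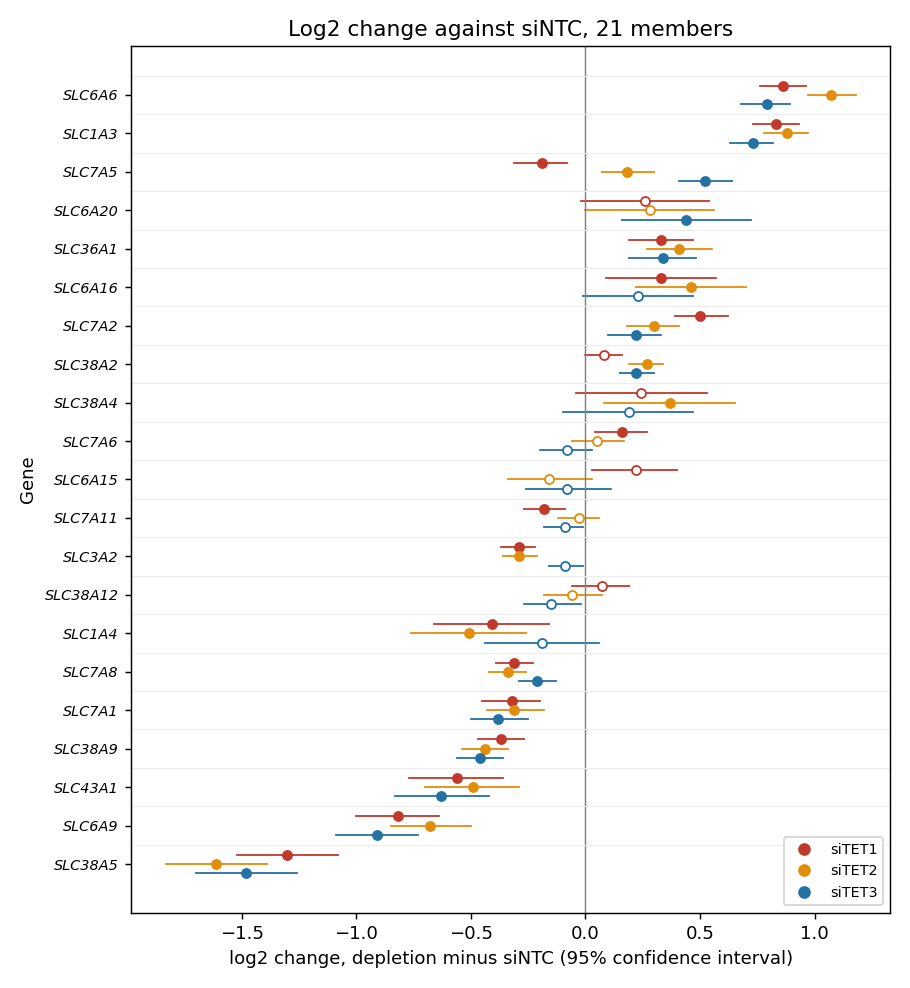
Log2 change against siNTC (x axis) of 21 transporter genes (y axis) in siTET1, siTET2 and siTET3, as points with 95% intervals of the limma fit, filled where the adjusted p was under 0.05. SLC6A6 and SLC1A3 stand furthest to the right and SLC38A5 and SLC6A9 furthest to the left, and the 3 points of SLC7A5 lie on both sides of 0.

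Smaller changes, in members added to the named ones after their values were seen, followed. The counts of calls kept under alternative fits leave these members out. SLC1A5 (ASCT2), the main glutamine exchanger of many growing cells, read 10.37 and 10.34 in siTET1, 10.29 and 10.30 in siTET2, 10.21 and 10.19 in siTET3, and 10.46 and 10.43 in siNTC. It was lowest in siTET3 and fell by 0.15 ± 0.039 in siTET2 (adjusted p = 0.00851) and by 0.25 ± 0.039 in siTET3 (adjusted p = 0.000242). A dimmer cluster annotated to SLC1A5 gave 0.15, 0.19 and 0.34 in siTET1, siTET2 and siTET3, of which the siTET3 value passed (adjusted p = 0.0329). With the mean of both clusters, SLC1A5 gave 0.02 in siTET2 (adjusted p = 0.821) and 0.05 in siTET3 (adjusted p = 0.574), so the decreases hold for the brighter cluster alone. SLC38A7, a lysosomal carrier of glutamine and asparagine, averaged 7.77 in siTET3 and 8.01 in siNTC and fell by 0.24 ± 0.069 (adjusted p = 0.0165). It gave -0.06 in siTET1 and -0.06 in siTET2, and neither passed. In siTET3, decreases were thus called for SLC38A7 and SLC38A9 and an increase for SLC36A1, and a link between them was not tested.

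Of the members with the promoter core printed above, SLC3A2, SLC7A1 and SLC1A4 had calls that were all decreases against siNTC, as had the brighter cluster of SLC1A5, and SLC1A3 had calls that were all increases. SLC38A1 (SNAT1) was below background on all 8 arrays and had no call.

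Several calls fell on dim genes. Calls against siNTC included 5 members that were above background on no array: SLC1A1, SLC38A4, SLC6A16, SLC7A14 and SLC7A7, and no fold is given for these. SLC6A16, a family member with no known substrate, averaged 4.83 in siTET1, 4.96 in siTET2 and 4.50 in siNTC, and SLC38A4 (SNAT4) averaged 4.83 in siTET2 and 4.46 in siNTC. Both depended on single arrays: without siNTC replicate 1 the calls of SLC6A16 were lost in siTET1 (adjusted p = 0.343) and siTET2 (adjusted p = 0.0725), and that of SLC38A4 was lost without siTET2 replicate 2 (adjusted p = 0.367). SLC1A1 averaged 4.32 in siTET2 and 4.06 in siNTC, and SLC7A14 averaged 4.48 in siTET3 and 4.21 in siNTC, where averaging its clusters ended the call (adjusted p = 0.29). SLC6A20 (SIT1), a proline and imino acid carrier, read 5.33 and 5.12 in siTET3 and 4.63 and 4.93 in siNTC, at least 1.01-fold higher (adjusted p = 0.0177), a call lost without siTET3 replicate 1 (0.33, adjusted p = 0.117) and without siNTC replicate 1 (0.29, adjusted p = 0.178). SLC6A12 (BGT1), a betaine carrier, read 5.47 and 5.19 in siTET3 and 5.06 and 4.97 in siNTC, at least 1.09-fold higher (adjusted p = 0.0346 in limma). It was above background on 1 array only, siTET3 replicate 1, and its call was not followed through the alternative fits.

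Between depletions, 12 members were called in at least 1 comparison, a count for which the share of all genes was not taken. Shares of all genes are given for each comparison alone. In siTET2 against siTET1 4 members were higher and 2 lower (2.33% and 4.13% of all genes). In siTET3 against siTET1 3 were higher and 5 lower (3.82% and 9.94% of all genes), and in siTET3 against siTET2 3 were higher and 2 lower (4.94% and 7.24% of all genes). SLC7A5 had the largest difference among the members called in each of the 3 comparisons. SLC6A6 was lower in siTET3 than in siTET2 by 0.28 ± 0.048 (adjusted p = 0.00208) and higher in siTET2 than in siTET1 by 0.21 (adjusted p = 0.0211). SLC7A2 was lower than in siTET1 by 0.29 ± 0.053 in siTET3 (adjusted p = 0.00355) and by 0.21 ± 0.053 in siTET2 (adjusted p = 0.038), calls lost without siTET1 replicate 2 (adjusted p = 0.0617 and 0.295). SLC7A6 was lower in siTET3 than in siTET1 by 0.24 ± 0.052 (adjusted p = 0.00895, and 0.0921 without siTET1 replicate 1). SLC38A2 was higher than in siTET1 by 0.19 in siTET2 (adjusted p = 0.00791) and by 0.14 in siTET3 (adjusted p = 0.0188). Differences with adjusted p-values from 0.0216 to 0.0498 were those of SLC7A11 (0.15, siTET2 over siTET1), SLC38A12 (-0.21, siTET3 over siTET1), the brighter cluster of SLC1A5 (-0.15, siTET3 over siTET1, and 0.02 with the mean of both clusters, adjusted p = 0.878), SLC7A8 (0.13, siTET3 over siTET2), SLC1A3 (-0.15, siTET3 over siTET2) and SLC6A15. SLC6A15, a carrier of branched-chain amino acids known from brain, was below background on all 8 arrays, with means of 4.73 in siTET2, 4.81 in siTET3 and 5.10 in siTET1. Of 18 calls of named members between depletions, 4 held in every alternative fit, the 3 of SLC7A5 and that of SLC6A6 in siTET3 against siTET2, whereas 37 of 45 calls against siNTC did. Leaving out 1 array ended at least 1 of the other calls between depletions for each named member but SLC3A2, with an adjusted p of up to 0.31.

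**Figure D4:**
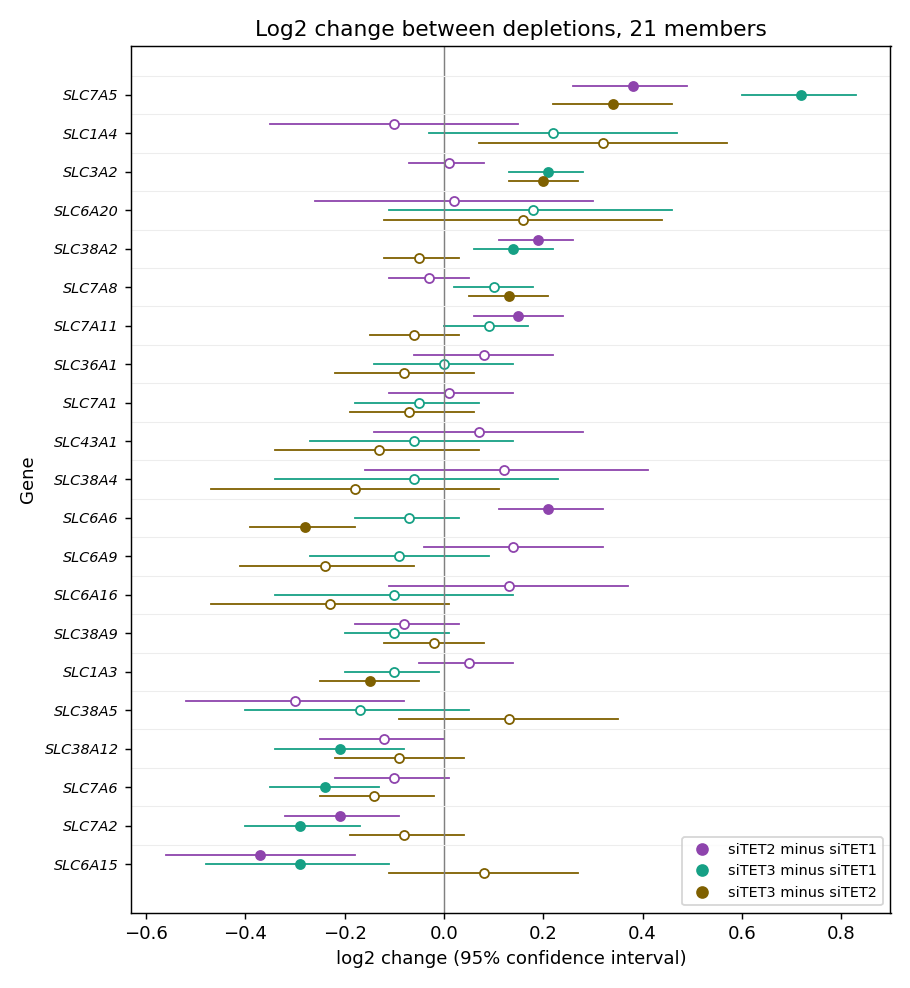
Log2 difference (x axis) of 21 transporter genes (y axis) for siTET2 minus siTET1, siTET3 minus siTET1 and siTET3 minus siTET2, as points with 95% intervals of the limma fit, filled where the adjusted p was under 0.05. SLC7A5 lies to the right in all 3 comparisons, and the points of SLC6A6 lie on both sides of 0. SLC6A15 was below background on all 8 arrays.

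Members that passed in no comparison with siNTC were 34 of 59, of which 12 were above background on all 8 arrays. The share of all genes that passed in none was not counted, so this number is no result about the family. Among the 12, SLC43A2 (LAT4), the relative of SLC43A1, gave -0.03, -0.09 and -0.15 in siTET1, siTET2 and siTET3, with a 95% interval from -0.32 to 0.01 in siTET3. SLC36A4 (PAT4) gave 0.00, 0.02 and 0.13, and SLC6A8, the creatine carrier, gave -0.05, 0.00 and -0.11. SLC6A11 (GAT3), a GABA carrier, gave -0.15, -0.23 and -0.27 with a standard error of 0.13. The 95% interval of SLC36A4 reached from -0.11 to 0.11 in siTET1 and from -0.09 to 0.13 in siTET2, short of any member change called against siNTC. In siTET3 it reached from 0.02 to 0.23 and took in changes of a size called in other members. That difference did not pass in limma (adjusted p = 0.0717). The intervals of SLC43A2, SLC6A8 and SLC6A11 left room for the smaller changes called in other members.

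Genes that act beside the transporters were counted from lists. In the ATF4 and amino acid response list, 5 of 33 measured genes rose and 15 fell in siTET1, 6 and 15 in siTET2, and 4 and 16 in siTET3, with medians of -0.167, -0.097 and -0.108. Of all genes 15.6% rose and 18.7% fell in siTET1, 14.4% and 21.8% in siTET2, and 13.8% and 22.3% in siTET3, with medians of -0.031, -0.039 and -0.017, and the counts of this list and of those that follow are descriptions beside these shares, with no test of a list. ATF4 itself gave 0.05 in siTET1 and siTET2 and fell by 0.11 ± 0.035 in siTET3 (adjusted p = 0.029), a transcript level that does not measure its translation. CHAC1, a glutathione-degrading enzyme induced by ATF4, read 6.37 and 6.50 in siTET1, 6.62 and 6.83 in siTET2, 6.82 and 6.61 in siTET3, and 8.01 and 7.98 in siNTC. It was 2.95-fold, 2.42-fold and 2.43-fold lower in siTET1, siTET2 and siTET3 (adjusted p = 1.42e-07, 5.89e-07 and 6.08e-07 in limma). Its 24 nearest genes above background on the chromosome had median changes of -0.29, -0.41 and -0.38, whose part was not tested. DDIT4, an mTORC1 inhibitor also induced by low oxygen, went the other way and read 8.18 and 8.20 in siTET1, 9.01 and 9.11 in siTET2, 8.04 and 8.19 in siTET3, and 7.15 and 6.94 in siNTC. It was 2.21-fold, 4.03-fold and 2.09-fold higher (adjusted p = 2.87e-07, 2e-09 and 4.55e-07). VEGFA and STC2, which answer low oxygen as well as ATF4, rose in siTET2 (1.06 ± 0.070 and 1.03 ± 0.072), and VEGFA also in siTET3 (0.39 ± 0.070).

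In the list of amino acid sensing by mTORC1, 9 of 35 measured genes rose and 5 fell in siTET1, 11 and 10 in siTET2, and 7 and 12 in siTET3 (medians 0.045, 0.004 and -0.083). SAMTOR, a sensor of S-adenosylmethionine, rose by 0.50, 0.83 and 0.63, and ITFG2, a subunit of the KICSTOR complex, fell by 0.47, 0.39 and 0.51. KICS2, another KICSTOR subunit, rose in siTET1 (0.51 ± 0.12), and DEPTOR, an inhibitory mTOR partner, fell in siTET2 (-0.56 ± 0.10) and siTET3 (-0.53 ± 0.10). Of 20 cytosolic aminoacyl-tRNA synthetase genes, which charge tRNAs with amino acids, 2 rose and 8 fell in siTET1, 1 and 10 in siTET2, and 2 and 7 in siTET3 (medians -0.07, -0.164 and -0.082). SARS1, for serine, fell by 0.20, 0.38 and 0.28, and WARS1, for tryptophan, fell by 0.36, 0.28 and 0.39. RARS1, for arginine, fell in siTET1 and siTET2 (-0.14 and -0.34), and NARS1, for asparagine, in siTET3 (-0.35).

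Among 16 enzymes of glutamine, glutamate and glutathione, 6 rose and 4 fell in siTET1, 4 and 6 in siTET2, and 5 and 6 in siTET3 (medians 0.069, 0.019 and -0.098). The subunits of the enzyme that begins glutathione synthesis rose together. GCLM, its modifier subunit, read 9.26 and 9.33 in siTET1, 9.09 and 9.16 in siTET2, 9.34 and 9.39 in siTET3, and 8.49 and 8.67 in siNTC. All depletion arrays lay above siNTC, and GCLM rose 1.64-fold, 1.46-fold and 1.73-fold (adjusted p = 2.19e-06, 2.01e-05 and 9.02e-07), while the catalytic GCLC rose by 0.29, 0.41 and 0.49. GOT1, the cytosolic aspartate aminotransferase, fell by 0.47, 0.53 and 0.42. GGCT, which releases amino acids from gamma-glutamyl dipeptides, fell by 0.36, 0.54 and 0.45. Its 24 nearest genes above background had median changes of 0.23, 0.19 and 0.21.

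Of 24 other carriers of amino acids and peptides, 1 rose and 6 fell in siTET1, 1 and 8 in siTET2, and 1 and 10 in siTET3 (medians -0.129, -0.117 and -0.118). SLC25A38, which brings glycine into mitochondria for haem synthesis, read 7.54 and 7.78 in siTET1, 7.74 and 7.68 in siTET2, 7.53 and 7.86 in siTET3, and 8.80 and 8.53 in siNTC. It was lower on all depletion arrays, by 1.0, 0.95 and 0.97 (standard error 0.11, adjusted p = 1.74e-05, 2.41e-05 and 2.16e-05). SLC25A12, the mitochondrial aspartate and glutamate carrier, fell by 0.57, 0.51 and 0.54 beside medians of -0.26, -0.31 and -0.24 in its neighbours. SLC66A1, which exports cationic amino acids from lysosomes, fell by 0.31, 0.32 and 0.61, and SLC25A15, the mitochondrial ornithine carrier, by 0.26, 0.54 and 0.26.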

How the data were processed

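RNA of NCCIT cells was profiled on 8 Affymetrix Human Gene 1.0 ST arrays, 2 per group. The deposited values are log2 intensities per transcript cluster, on a scale that the authors normalized across the arrays. The submitters' processing notes name Partek, and the background correction and probe summary it applied, like its version, were not given in the sources used here. Of 33297 clusters, 19460 had 1 gene symbol in the array annotation, 1754 had several and 12083 none, and the tests used those with 1. The brightest cluster stood for each of 18417 genes.

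A model of the 4 groups was fitted to all genes and 8 arrays in R 4.3.3, using limma 3.58.1 with lmFit and then eBayes, whose prior followed intensity (8.55 prior and 4 residual degrees of freedom). Tests were two-sided, with Benjamini-Hochberg adjustment over all genes of each of 6 comparisons and calls at an adjusted p under 0.05. Nearest genes were up to 24 neighbours in the GRCh38.p14 order, taken among genes with a mean over the arrays above background. Promoter sequences are from RefSeq, GRCh38.p14. Figures were drawn with matplotlib 3.10.9.

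The members and lists were chosen with earlier results of these data known. Named members were SLC7A5 and SLC3A2, the members with called changes of at least 1.5-fold, the largest called changes each way in each comparison, and those called in opposite directions. Up to 4 genes were named per list. The precision is limited by the number of arrays. Alternatives were quantile normalization, arrays centred on their medians (chosen after seeing the data), the average of a gene's clusters, a fit of genes above background, a prior with no intensity trend, a replicate block, the arrays of the comparison alone, a threshold of 0.01, and each array left out in turn.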

Additional observations from a re-analysis of the deposited data

Results flagged for a closer look

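Differences between depletions were singled out because the test of the difference itself passed in limma. SLC7A5 was higher in siTET2 than in siTET1 (0.38) and higher in siTET3 than in siTET1 (0.72) and in siTET2 (0.34). Its heavy chain SLC3A2 was higher in siTET3 than in siTET1 (0.21) and in siTET2 (0.20). SLC38A2 was higher in siTET2 (0.19) and siTET3 (0.14) than in siTET1, and SLC7A2 was lower in siTET2 (-0.21) and siTET3 (-0.29) than in siTET1. SLC6A6 was higher in siTET2 than in siTET1 (0.21) and lower in siTET3 than in siTET2 (-0.28). SLC7A11 was higher in siTET2 than in siTET1 (0.15), and SLC38A12 (-0.21) and SLC7A6 (-0.24) were lower in siTET3 than in siTET1. SLC6A15 also passed in siTET2 (-0.37) and siTET3 (-0.29) against siTET1, but all groups lay below background, so these values are not differences between measured levels. SLC1A3 was lower (-0.15) and SLC7A8 higher (0.13) in siTET3 than in siTET2.

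Signals were also present in clusters that the comparisons above did not use. A pair of clusters annotated jointly to the creatine carrier SLC6A8 and to its pseudogene copies SLC6A10P and SLC6A10PB rose in siTET1 (0.24 and 0.24), siTET2 (0.45 and 0.45) and siTET3 (0.18 and 0.19), while the cluster of SLC6A8 alone did not pass. Their probes cannot be assigned to 1 of these genes. The dimmer cluster of SLC1A5 read 6.58 and 6.61 in siTET3 and 6.20 and 6.32 in siNTC, higher by 0.34 ± 0.093 (adjusted p = 0.0329 over 33297 clusters), while the brighter cluster of the gene fell. The cluster annotated jointly to the carrier SLC43A3 and to PRG2 read 8.38 and 8.54 in siTET1, 8.49 and 8.58 in siTET2, 8.40 and 8.36 in siTET3, and 9.16 and 9.09 in siNTC. It was lower by 0.66, 0.59 and 0.74 in siTET1, siTET2 and siTET3 (limma, standard error 0.069, adjusted p = 0.000571, 0.00077 and 0.000333), and it cannot be assigned to 1 of these genes.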

How the results depend on the processing

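For the members named by the rule above, no called change reversed under any alternative. Of their called values 37 of 45 against siNTC and 4 of 18 between depletions held in all of up to 15 alternative fits. Calls of other members, among them SLC1A5, SLC38A7 and SLC6A12, are not in these counts. The called SLC1A5 decreases of 0.15 in siTET2 and 0.25 in siTET3 became 0.02 and 0.05 with the mean of both clusters. Against siNTC the member counts stayed within 1.5 times of those reported except for the 5 higher in siTET2 without siTET2 replicate 2. With 1 array left out they were 4 to 6 higher and 8 to 11 lower in siTET1, 5 to 10 and 8 to 11 in siTET2, and 6 to 10 and 7 to 10 in siTET3. Between depletions they were less firm. Without 1 array, siTET2 against siTET1 gave 1 to 5 higher and 0 to 2 lower, siTET3 against siTET1 gave 2 to 4 and 1 to 5, and siTET3 against siTET2 gave 2 to 7 and 1 to 2, with the 7 without siTET3 replicate 2. The low counts came from leaving out any of the 4 arrays compared in siTET2 against siTET1, any of the 6 depletion arrays for genes lower in siTET3 against siTET1, and any of these but siTET3 replicate 1 for genes lower in siTET3 against siTET2. For siTET2 against siTET1, 1 was higher and 1 lower without an intensity trend, 2 and 0 at an adjusted p under 0.01, 1 was lower with genes above background only, and 4 were lower with the arrays of the comparison alone. For siTET3 against siTET1, 1 was higher and 2 lower without a trend, and 2 were lower at 0.01 and with the arrays of the comparison alone. For siTET3 against siTET2, 1 was higher and 1 lower without a trend, and 1 was lower under quantile normalization, median centring, the replicate block, the arrays of the comparison alone and 0.01. The cause was not tested. Deviations of replicates with the same number were correlated between siTET1 and siTET3 (r = 0.25) and hardly in the other pairs of groups (r = -0.05 to 0.05). Whether siTET1 and siTET3 share a replicate effect was not tested. The replicate block lost the calls of SLC1A3 in siTET3 against siTET2 (adjusted p = 0.0572) and SLC7A11 in siTET2 against siTET1 (adjusted p = 0.0574) and no other call of a named member. With 1 array left in a group, that array is assumed to vary like the others. Values near 5.21 are limited by signal over background.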
